A study of Mus musculus with 23 samples.

Results

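The 6 genes described here, Dnase1l3, Abcb1a, Ppp1r14a, Ube2e2, Ppargc1a and Dscam, were picked because their signal was much lower in cDC2 of Bcl6-deleted mice than in cDC2 of wild-type mice. They are 6 of 19938 named genes on the arrays and of 12157 genes that were bright enough to be tested. They are read by 7 probe sets, of which 6 were kept, 1 for each gene. A second probe set for Ppargc1a was dimmer and did not pass the brightness filter. Since the cDC2 difference chose the genes, it is given below as a description without a test. Tests of the 6 genes are given only for comparisons that set no cDC2 array against another.

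The study measured splenic dendritic cells of mice on 23 Affymetrix arrays, each with RNA of 1 sorted population. The populations were the conventional types cDC1 and cDC2 and the plasmacytoid type (pDC), each from wild-type (WT) animals and from animals with Bcl6, a transcriptional repressor gene, conditionally deleted (cKO). WT groups held 3 arrays each, and cKO groups held 4 for cDC1, 5 for cDC2 and 5 for pDC. The Cre driver, the strain, ages, treatment beyond tissue digestion and any pooling of animals are not given in the sources used here, and nothing states that arrays within a group stem from different animals. The p-values therefore cover only the spread among these samples, which may be technical.

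The 6 genes belong to unrelated families. Dnase1l3 encodes a secreted nuclease that cuts DNA packed in chromatin and released from dying cells, made largely by dendritic cells and macrophages, and its loss leads to antibodies against DNA. Abcb1a encodes P-glycoprotein, a membrane pump that expels many drugs and lipophilic compounds, and Ppp1r14a encodes an inhibitor of myosin light chain phosphatase, best known from smooth muscle. Ube2e2 encodes an enzyme that passes ubiquitin to substrates with the help of a ligase. Ppargc1a encodes a transcriptional coactivator that drives mitochondrial biogenesis and oxidative metabolism, and Dscam encodes an adhesion molecule of the immunoglobulin superfamily that guides neurites in the nervous system.

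Promoter windows were taken from RefSeq (GRCm38.p6), each running 250 bases before to 50 bases after a gene's start. Of the 6 genes 5 had at least 1 window, with a pair of windows for Ube2e2 and no entry for Dnase1l3. The windows of Abcb1a, Dscam and Ppp1r14a are shown, since they differ in base composition and hold the only motif match. They are written 5′ to 3′ on the gene's strand, and capitals mark the only match found to a searched motif.
Abcb1a (GRCm38.p6, chr5:8566841-8567140, plus strand): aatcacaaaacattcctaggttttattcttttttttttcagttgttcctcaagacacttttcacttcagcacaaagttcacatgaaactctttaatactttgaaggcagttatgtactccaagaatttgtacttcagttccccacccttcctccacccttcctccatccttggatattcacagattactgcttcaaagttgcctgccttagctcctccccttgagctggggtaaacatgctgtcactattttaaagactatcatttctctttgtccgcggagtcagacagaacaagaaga
Dscam (GRCm38.p6, chr16:97170686-97170985, minus strand): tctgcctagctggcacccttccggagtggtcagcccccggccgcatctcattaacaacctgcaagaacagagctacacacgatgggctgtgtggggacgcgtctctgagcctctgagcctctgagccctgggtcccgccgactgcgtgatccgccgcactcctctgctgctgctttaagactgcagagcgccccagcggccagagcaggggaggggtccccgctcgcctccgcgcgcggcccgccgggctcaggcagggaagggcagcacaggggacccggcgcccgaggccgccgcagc
Ppp1r14a (GRCm38.p6, chr7:29289070-29289369, plus strand): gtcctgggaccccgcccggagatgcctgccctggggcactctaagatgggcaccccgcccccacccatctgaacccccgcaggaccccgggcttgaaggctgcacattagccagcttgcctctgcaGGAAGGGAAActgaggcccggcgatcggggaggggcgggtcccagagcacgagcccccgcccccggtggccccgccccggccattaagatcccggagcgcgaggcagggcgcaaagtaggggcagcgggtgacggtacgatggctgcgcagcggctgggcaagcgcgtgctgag

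The windows differed in base composition. G and C made up 40.3% of the Abcb1a window and 48.7% of the Ppargc1a window, both below the median of 52.7% over all 32851 windows of the table. They made up 70.0% of the Dscam window, 71.3% of the Ppp1r14a window and 70.0% and 82.7% of the Ube2e2 windows. The 5 genes with a window thus had promoters on both sides of that median. Exact matches to 5 motifs were sought on both strands. The BCL6 type motif TTCCTNGAA, where N is any base, was held by 1.59% of all windows. The STAT type motif TTCNNNGAA, which every match of the BCL6 type also fits, was held by 8.30%. The RBPJ type motif GTGGGAA was held by 6.38%, and the TATA box TATAAA by 13.6%. An ETS-IRF composite motif was held by 2.72%. The 6 windows held a single match, GGAAGGGAAA of the ETS-IRF composite, which begins at base 127 of the Ppp1r14a window counted from its 5′ end. The other 4 motifs had no match in these windows, which says only that those letters are not there.

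Before the results, the arrays were checked against their labels. The 10 cDC1 markers averaged 9.94 to 10.72 on the log2 scale on cDC1 arrays, against 6.72 to 7.56 on the others. The 10 cDC2 markers averaged 8.54 to 9.17 on cDC2 arrays and the 8 of 10 kept pDC markers 10.57 to 11.60 on pDC arrays. Bcl6 itself was read by a probe set whose place relative to the deleted exons was not given, and if outside them it checks nothing. Its cKO minus WT difference was 0.96 ± 0.35 in cDC1 (SE; limma adjusted p = 0.598), 0.69 ± 0.33 in cDC2 (adjusted p = 0.756) and −0.15 ± 0.33 in pDC (adjusted p = 1). Median intensities per array ran from 29.3 to 41.2 and were parted into 3 sets of arrays, called processing sets A, B and C here. Each set has arrays of all 6 groups. Set C stood apart, but A ended at 31.0 and B began at 31.6, so A and B may not mark separate processing. The labels name no such sets. WT replicate 1 of each cell type had levels of Xist, the RNA of the inactive X chromosome, of 10.90 to 11.89, while the other 20 arrays, all cKO arrays included, read 3.79 to 5.07, so results are also given without those 3 arrays.

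In cDC2, all 6 genes had lower signals on every cKO array than on every WT array, with mean differences of −2.23 to −1.65 on the log2 scale. The median of the 6 was −1.80, against 0.07 over all 12157 genes. Of all genes 0.403% passed limma's test as lower in cKO cDC2 (adjusted p under 0.05) and 1.45% were lower with no overlap between the groups, a background from which nothing is read for genes picked on this contrast. Among the 49 genes that passed as lower, ordered by size, the 6 held ranks 2 and 6 to 10. Their place in this list and their ranks follow from how they were picked, so nothing is read from either. In an RNA extract from sorted cells, fewer cells that make a transcript and less of it per cell cannot be told apart.

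**Figure D1:**
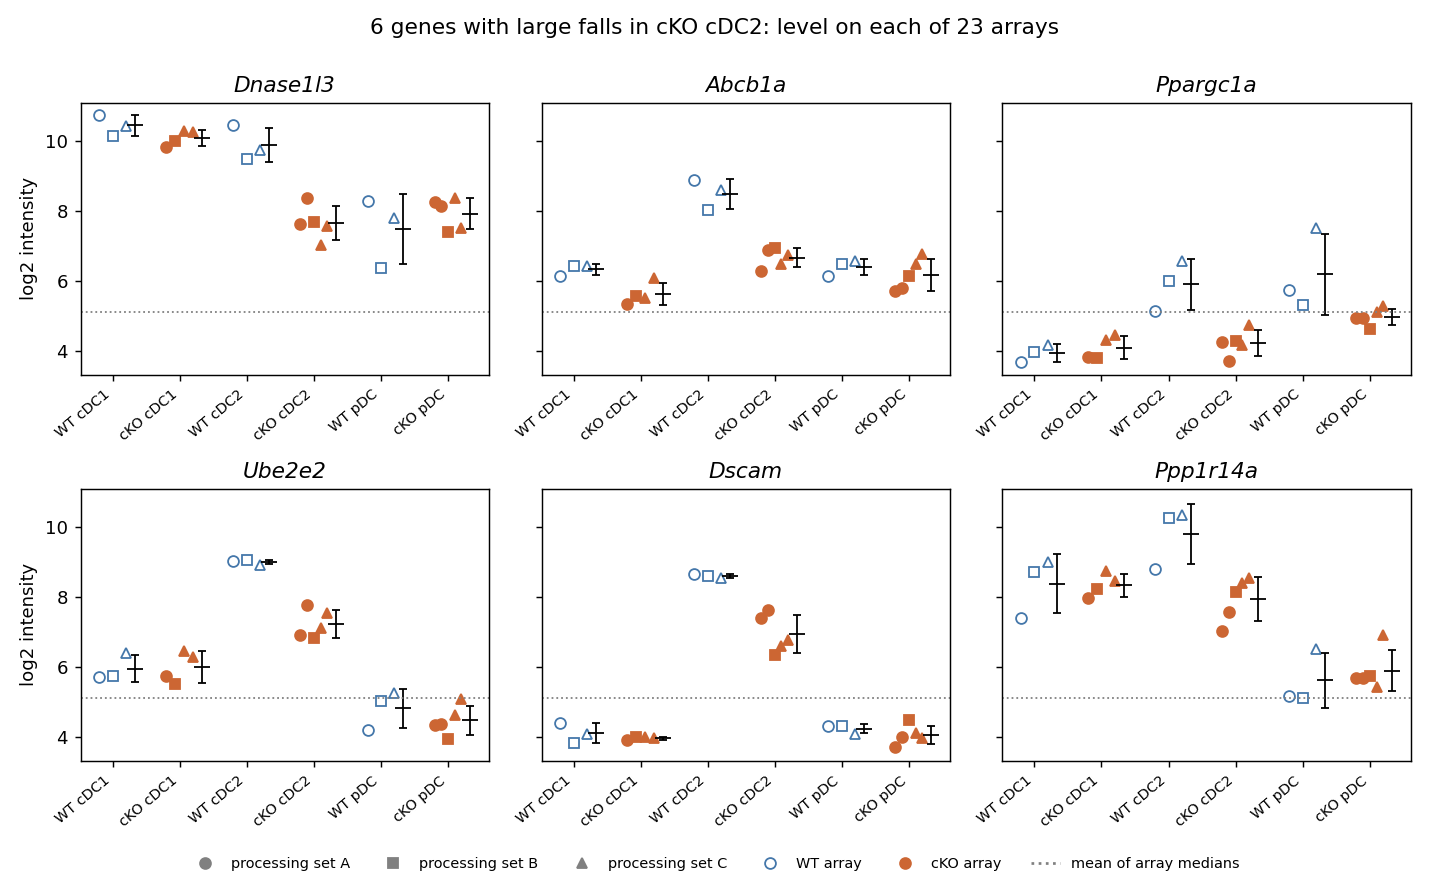
Level of each of the 6 genes on each of the 23 arrays (log2 intensity) by group, where open points are WT arrays, filled points are cKO arrays, marker shapes give the processing set and the dotted line is the mean of the array medians. In cDC2 every cKO point lies below every WT point, while Dscam sits near or below the dotted line in cDC1 and pDC.

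Dnase1l3 had the largest difference of the 6. It read 10.44, 9.48 and 9.74 on the WT cDC2 arrays and 7.63, 8.37, 7.67, 7.03 and 7.57 on the cKO cDC2 arrays. The groups were separate, and the mean was lower by a log2 difference of −2.23 ± 0.35 (limma SE), a 4.70-fold lower level. In cDC1 the nuclease was as bright as in WT cDC2: 10.74, 10.15 and 10.43 in WT and 9.81, 10.00, 10.29 and 10.25 in cKO, and these groups overlapped. In pDC it read 8.29, 6.35 and 7.78 in WT and 8.24, 8.14, 7.38, 8.36 and 7.50 in cKO. The level of cKO cDC2 (7.65 ± 0.48, SD, n = 5) thus overlapped that of WT pDC (7.48 ± 1.01, n = 3) and cKO pDC (7.92 ± 0.45, n = 5), and lay apart from both cDC1 groups.

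Abcb1a was brightest in WT cDC2. The pump read 8.87, 8.02 and 8.58 on the WT cDC2 arrays and 6.27, 6.87, 6.93, 6.48 and 6.73 on the cKO arrays, a difference of −1.83 ± 0.25 and a 3.56-fold lower level. Of the 5 cKO cDC2 arrays 2, at 6.87 and 6.93, still lay above every cDC1 and pDC array, and the other 3 lay within the pDC range. In cDC1 it read 6.12, 6.42 and 6.42 in WT and 5.34, 5.57, 5.50 and 6.08 in cKO, so that all 4 cKO arrays lay below all 3 WT arrays there too. In pDC it read 6.12, 6.48 and 6.57 in WT and 5.70, 5.78, 6.12, 6.48 and 6.77 in cKO, and these groups overlapped.

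Ppp1r14a, the phosphatase inhibitor, varied most between arrays of a group. It read 8.80, 10.25 and 10.34 on the WT cDC2 arrays and 7.03, 7.56, 8.15, 8.40 and 8.54 on the cKO arrays, a difference of −1.86 ± 0.44 and a 3.64-fold lower level. The lowest WT array and the highest cKO array stood close to each other, and they belong to different processing sets. In cDC1 it read 7.41, 8.71 and 9.0 in WT and 7.96, 8.22, 8.73 and 8.46 in cKO, and the groups overlapped. In pDC it was lowest, at 5.18, 5.12 and 6.52 in WT and 5.69, 5.69, 5.73, 5.43 and 6.90 in cKO. Its cKO cDC2 arrays (7.93 ± 0.63, mean ± SD, n = 5) overlapped the range of both cDC1 groups (8.38 ± 0.85, n = 3, and 8.34 ± 0.33, n = 4).

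Ube2e2 was brightest in WT cDC2. The conjugating enzyme read 9.03, 9.06 and 8.92 on the WT cDC2 arrays and 6.91, 7.76, 6.82, 7.11 and 7.53 on the cKO arrays, a difference of −1.78 ± 0.29 and a 3.43-fold lower level. The WT arrays were nearly alike (SD 0.07), while the cKO arrays spread more widely (SD 0.41). In cDC1 it read 5.72, 5.73 and 6.39 in WT and 5.73, 5.51, 6.45 and 6.27 in cKO. In pDC it read 4.18, 5.01 and 5.25 in WT and 4.34, 4.36, 3.93, 4.63 and 5.08 in cKO, below the array median on all 8 arrays, where a level cannot be told from background. The cKO cDC2 arrays therefore stayed above every cDC1 and pDC array.

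Dscam, the adhesion molecule, passed the brightness filter through its cDC2 arrays alone. It read 8.65, 8.60 and 8.54 on the WT cDC2 arrays and 7.40, 7.62, 6.33, 6.61 and 6.76 on the cKO arrays, a difference of −1.65 ± 0.24 and a 3.14-fold lower level. Both cKO cDC2 arrays of processing set A, at 7.40 and 7.62, were above the 3 others. On the 7 cDC1 arrays it read 4.39, 3.82 and 4.08 in WT and 3.91, 3.99, 4.0 and 3.95 in cKO. On the 8 pDC arrays it read 4.30, 4.31 and 4.07 in WT and 3.72, 3.99, 4.47, 4.10 and 3.97 in cKO. All of these cDC1 and pDC values lay below the array median, where a level cannot be told from background, while every cDC2 array of either genotype was above its median.

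Ppargc1a, the mitochondrial coactivator, was above the array median on all WT cDC2 and WT pDC arrays. It read 5.13, 5.98 and 6.55 on the WT cDC2 arrays and 4.24, 3.70, 4.26, 4.15 and 4.73 on the cKO arrays, a difference of −1.67 ± 0.37 and a 3.19-fold lower level. All 3 WT arrays were above their array medians and all 5 cKO arrays were below theirs, so the size of this fold is uncertain. In cDC1 it was below the array median on all 7 arrays, at 3.66, 3.97 and 4.16 in WT and 3.82, 3.78, 4.29 and 4.44 in cKO. In pDC it read 5.73, 5.30 and 7.50 in WT and 4.93, 4.92, 4.62, 5.09 and 5.26 in cKO, and all 5 cKO arrays lay below all 3 WT arrays. The dropped second probe set showed 4.62 ± 0.35 (SD, n = 3) in WT cDC2 against 3.58 ± 0.47 (n = 5) in cKO cDC2, both below the array medians.

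Levels were then ordered across the 6 groups, within each gene since probe sets cannot be set against each other. WT cDC2 was the highest group for Abcb1a, Ube2e2, Dscam and Ppp1r14a, although for Ppp1r14a its range overlapped that of WT cDC1. Picking genes by a fall from WT cDC2 favours a high level there, and Dscam passed the filter through its cDC2 arrays alone. The order is therefore a description of the picked genes only. For Dnase1l3 both cDC1 groups and WT cDC2 formed an upper trio with overlapping ranges, 1.96 above the next group, cKO pDC. For Ppargc1a WT pDC (6.18 ± 1.16, SD, n = 3) and WT cDC2 (5.89 ± 0.72, n = 3) led, with overlapping ranges. The cKO cDC2 group held the next place below WT cDC2 for Abcb1a, Ube2e2 and Dscam. For Dscam it was still 2.72 above the following group, for Ube2e2 1.23 above it and for Abcb1a 0.27 above it with overlapping ranges. The following group for Dscam, WT pDC, was below the array median on every array, so the size of that gap is uncertain. Dscam and Ube2e2 thus had cDC2 as their brightest cell type also among the cKO arrays, with no overlap.

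The cDC2 differences were negative within each processing set for all 6 genes. Each set holds 1 WT cDC2 array and 1 or 2 cKO cDC2 arrays, so these are values without a test, and the separation of the groups fixes their sign. In sets A, B and C, Dnase1l3 differed by −2.44, −1.81 and −2.45. Abcb1a differed by −2.30, −1.09 and −1.97, with the smallest value in set B. Ube2e2 differed by −1.69, −2.24 and −1.60, Dscam by −1.15, −2.27 and −1.85, Ppp1r14a by −1.51, −2.10 and −1.87, and Ppargc1a by −1.16, −1.73 and −2.11. Without the 3 high-Xist arrays the differences ran from −2.36 for Ppp1r14a to −1.62 for Dscam, and the separation of the groups fixes this sign too.

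**Figure D2:**
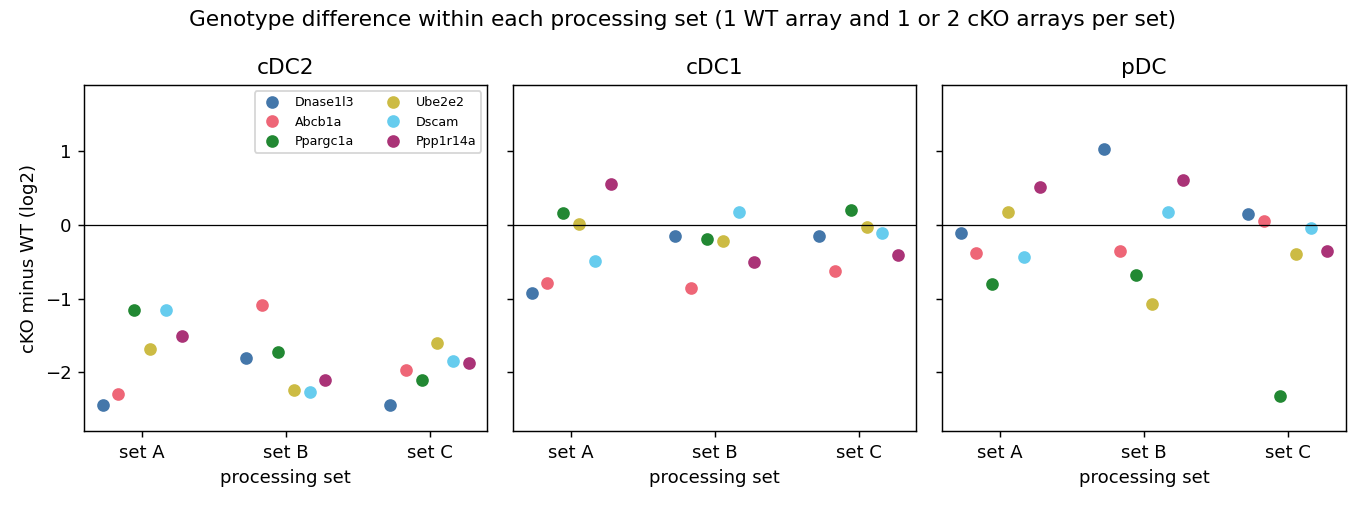
Difference between cKO and WT arrays (log2) of each gene within processing sets A, B and C, for cDC2, cDC1 and pDC, each point resting on 1 WT array and 1 or 2 cKO arrays. All 18 cDC2 points lie below 0, from −2.45 to −1.09, while points of cDC1 and pDC fall on both sides of 0 except for Abcb1a and Dnase1l3 in cDC1 and Ppargc1a in pDC, which stay below it in all 3 sets.

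Genes next to the 6 in the order of falls were of other kinds. Clec4a4, an inhibitory lectin of splenic cDC2, stood at rank 1 with −2.72 ± 0.28, Slc12a2, an ion cotransporter, at rank 3 with −2.22 ± 0.29, and Tlr7, the single-stranded RNA sensor, at rank 5 with −2.11 ± 0.32. Just outside the 6 stood Cd72, an inhibitory lectin best known from B cells, at rank 11 with −1.65 ± 0.26, next to Dscam at rank 10 with −1.65 ± 0.24. Of the genes that did not pass the test, Xist (−2.57), Dcn (−2.28) and Slc6a12 (−1.72) had differences as large as those of the 6.

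Some markers of other cells moved in cKO cDC2 as well, where 1.56% of all genes passed limma's test in either direction and 6.50% had an unadjusted p under 0.05. Of 8 red pulp macrophage markers 2 rose in limma's test, Cd163 and Mertk, and 5 had an unadjusted p under 0.05. The list median was 0.66, with a summed intensity of 504.1 to 1131.4 on WT and 688.9 to 1285.5 on cKO arrays. Cd163 and Mertk were below the array median on every WT cDC2 array. Of 7 kept monocyte and neutrophil markers Lyz2 and Ccr2 rose and Csf3r fell, and 3 had an unadjusted p under 0.05. Their median was 0.71, with sums of 417.4 to 1435.4 on WT and 947.0 to 2063.0 on cKO arrays. None of the 6 kept T cell markers passed limma's test, with 3 at an unadjusted p under 0.05 (median 0.55, sums of 486.0 to 744.6 on WT and 623.3 to 1034.0 on cKO arrays). None of the 7 kept B cell markers passed either, with 1 at an unadjusted p under 0.05 (median −0.08, sums of 188.3 to 287.1 and 133.3 to 243.0), and none of the 5 kept NK cell markers, with 2 at that level (median 0.15, sums of 203.0 to 391.8 and 375.6 to 518.3). Of the 7 B cell markers 4 were below the array median on every WT cDC2 array and 4 on every cKO cDC2 array, Cd79a and Cr2 on all of both. No marker had an unadjusted p under 0.05 among 5 kept for plasma cells (median −0.19) or 4 kept for erythroid cells and platelets (median 0.12). Of the 10 cDC1 markers Naaa rose and 2 had an unadjusted p under 0.05. Their median was 0.43, with sums of 3706.8 to 4169.2 on WT and 2681.6 to 4786.6 on cKO arrays. Xcr1 was below the array median on every cDC2 array. None of the 8 kept pDC markers passed limma's test, with 1 at an unadjusted p under 0.05 (median 0.07, sums of 920.4 to 1839.0 and 1594.5 to 3033.6). Of the 10 cDC2 markers Itgam and Cd209a rose and Clec4a4 fell, with 4 at an unadjusted p under 0.05 and a median of 0.33. The part of these other cells in the lower signal of the 6 genes was not tested.

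Whether the 6 genes also differed between genotypes in the other dendritic cells was asked in cDC1 and pDC, whose arrays the choice of genes did not use. In cDC1 none of the 6 passed limma's test over all genes, where 0.831% of genes did. At an unadjusted p under 0.05 limma marked 1 of the 6, against 3.28% of all genes. That gene was Abcb1a, with −0.70 ± 0.26 (SE; 95% interval −1.25 to −0.15; limma adjusted p = 0.712), and its 4 cKO arrays lay below its 3 WT arrays, as was so for 1.28% of all genes in this direction. In the same cKO cDC1 arrays 5 of the 10 cDC2 markers rose in limma's test, namely Sirpa, Itgam, Cd209a, Zeb2 and Clec4a2, with a list median of 1.0 and summed intensities of 528.2 to 745.4 on WT and 1338.2 to 1714.1 on cKO arrays. Of the 8 red pulp macrophage markers Adgre1 passed there as well, with a median of 0.07 and sums of 371.6 to 579.3 on WT and 369.7 to 670.7 on cKO arrays. The part of both lists in the cDC1 values of the 6 genes was not tested. Within sets A, B and C the Abcb1a difference was −0.79, −0.85 and −0.63. In a fit blocked on replicate number the difference was −0.85 and passed (limma adjusted p = 0.0342), while over the other alternatives its adjusted p was 0.132 or more. In cDC1 the WT and cKO arrays of a shared number also share a processing set, so number and set cannot be told apart.

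The other 5 genes had differences of −0.35 to 0.15 in cDC1, with intervals that admit changes either way. Dnase1l3 differed by −0.35 (95% interval −1.11 to 0.42), lower than all but 3.61% of genes, and by −0.93, −0.15 and −0.15 within sets A, B and C. Ube2e2 differed by 0.04 (−0.59 to 0.68) and Ppp1r14a by −0.04 (−0.99 to 0.92). All 3 of these genes were above the array median on every cDC1 array. Ppargc1a (0.15, interval −0.64 to 0.95) and Dscam (−0.14, interval −0.65 to 0.38) were below the array median throughout cDC1, so that a further drop would not show. The median of the 6 in cDC1 was −0.09, against 0.06 over all genes. On simulated data, the same fit called 91.0% of 4-fold and 36.0% of 2-fold changes in cDC1. The simulated noise was independent between arrays, without processing sets or a background floor, so these shares need not hold for the 6 genes.

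In pDC none of the 6 passed limma's test either, where 0.0329% of genes did, and 1 of 6 had an unadjusted p under 0.05, against 1.99% of all genes. That gene was Ppargc1a, with −1.21 ± 0.37 (95% interval −1.97 to −0.45; limma adjusted p = 1), a 2.32-fold lower level. All 5 of its cKO arrays were below all 3 WT arrays, as was so for 0.189% of genes in this direction. Only 2 of these 5 cKO arrays were above their array medians, so the size of this fold is uncertain. Much of the size came from WT pDC replicate 3, at 7.50: without it the difference was −0.55 (limma adjusted p = 0.861), and within sets A, B and C it was −0.80, −0.68 and −2.32. Its adjusted p with the processing set as a term was 0.0581, and no alternative brought it below 0.05. On the dropped second probe set of Ppargc1a the pDC groups overlapped, at 4.15 to 6.58 in WT and 4.06 to 5.21 in cKO. No cell type marker passed limma's test in pDC. The largest list shift was that of the 5 kept NK cell markers (median −0.67, sums of 159.1 to 804.3 on WT and 142.9 to 267.1 on cKO arrays). The part of other cells in the pDC values was not tested.

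Among the other genes in pDC, Dnase1l3 had a positive difference of 0.45 (95% interval −0.28 to 1.18), and without WT pDC replicate 2 it was −0.11. Abcb1a differed by −0.22 (interval −0.74 to 0.30) and Ppp1r14a by 0.28 (interval −0.63 to 1.19). The genotype groups overlapped for all 3 of these genes. Ube2e2 (−0.34, interval −0.95 to 0.26) and Dscam (−0.17, interval −0.67 to 0.32) were below the array median on all 8 pDC arrays. The median of the 6 in pDC was −0.20, against 0.05 over all genes.

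**Figure D3:**
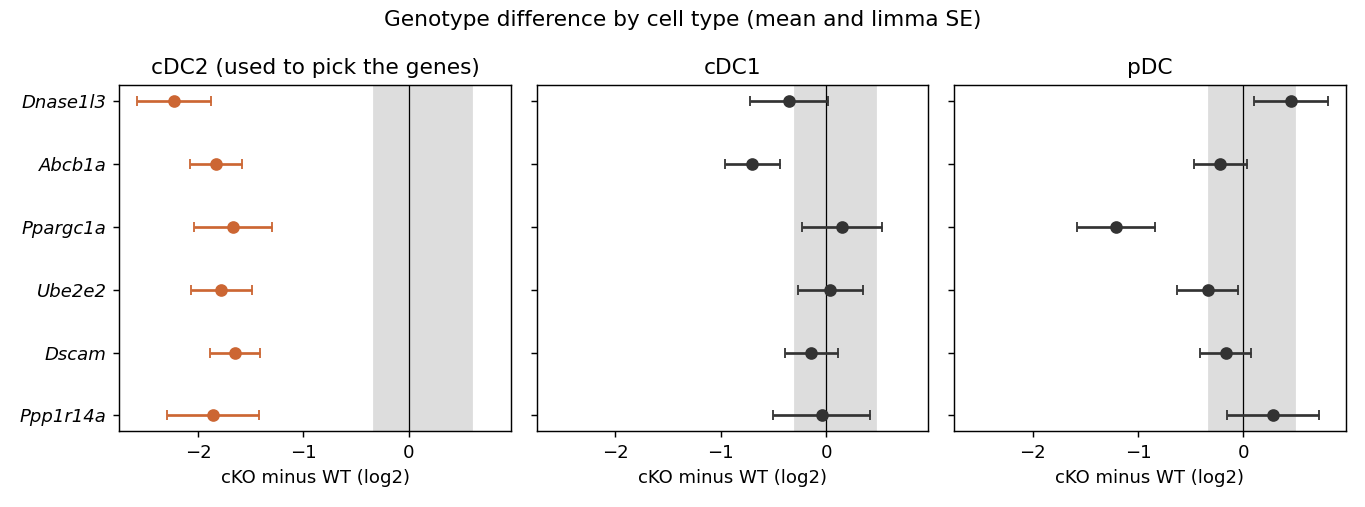
Difference between cKO and WT arrays (log2, mean with limma SE) of the 6 genes in cDC2, cDC1 and pDC, where grey bands span the middle of all genes from the 5th to the 95th percentile. The cDC2 panel shows the values that picked the genes, from −2.23 to −1.65, while in the other panels only Abcb1a in cDC1 (−0.70) and Ppargc1a in pDC (−1.21) lie clearly to the left of the band.

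The genotype effects in cDC1 and pDC were compared directly, the only such difference that uses no cDC2 array. None of the 6 passed limma's test, where 0.329% of genes did, and 1 had an unadjusted p under 0.05, against 2.39% of genes. That was Ppargc1a, which had the largest difference, 1.36 ± 0.53 (95% interval 0.26 to 2.46; limma adjusted p = 1), which was 0.70 without WT pDC replicate 3. Since Ppargc1a was below the array median on all 7 cDC1 arrays, this difference rests on the pDC arrays and on a cDC1 level that cannot be told from background. The other 5 ranged from −0.79 for Dnase1l3 to 0.39 for Ube2e2. Whether the cDC2 effect differs from those in cDC1 and pDC was not tested, since the cDC2 effect chose the genes.

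Cell type differences without cDC2 compared the signals of the 6 genes in the other dendritic cells. Of the 6, 4 passed limma's test between WT cDC1 and WT pDC, where 13.5% of all genes did. Dnase1l3 was higher in WT cDC1 by 2.96 ± 0.40 (7.78-fold; limma adjusted p = 6.38e-06) and Ppp1r14a by 2.77 ± 0.49 (6.82-fold; adjusted p = 0.000242). On WT pDC replicate 2 Ppp1r14a read 5.12, against an array median of 5.10, so the size of its fold is uncertain. Ppargc1a ran the other way, at −2.24 ± 0.41 (adjusted p = 0.000338), 4.74-fold brighter in WT pDC with its cDC1 level below the array median. All 3 of these passed whichever array was left out.

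Ube2e2 was higher in WT cDC1 than in WT pDC by 1.13 ± 0.33 (2.20-fold; limma adjusted p = 0.0201), with its pDC level below the array median. This call did not hold without WT cDC1 replicate 3 (0.91, adjusted p = 0.125), without WT pDC replicate 1 (0.82, adjusted p = 0.139), without the 3 high-Xist arrays (0.93, adjusted p = 0.182) or in a fit of these groups alone (adjusted p = 0.0992). Abcb1a (−0.07, 95% interval −0.65 to 0.52) and Dscam (−0.13, interval −0.68 to 0.42) did not pass.

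The cKO arrays gave a like order. Of the 6, 3 passed between cKO cDC1 and cKO pDC, where 20.4% of all genes did. Ppp1r14a was higher in cDC1 by 2.45 ± 0.40 (5.48-fold, limma adjusted p = 6.65e-05) and Dnase1l3 by 2.17 ± 0.32 (4.49-fold, adjusted p = 2.07e-05). Ube2e2 was higher by 1.52 ± 0.27 (2.87-fold, adjusted p = 0.000153), with its pDC level below the array median, so the size of its fold is uncertain. Ppargc1a, which passed in WT, was at −0.88 ± 0.34 here (adjusted p = 0.0703), and Abcb1a was at −0.55 ± 0.23 (adjusted p = 0.105). With quantile normalization both of these passed, Abcb1a at −0.65 (limma adjusted p = 0.0252) and Ppargc1a at −0.86 (adjusted p = 0.0234). Apart from left-out single arrays, which changed neither result, Ppargc1a passed in 6 of 10 alternatives and Abcb1a in 3 of 11. Dscam differed by −0.09 (95% interval −0.54 to 0.36), with both groups below the array median.

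The 6 genes did not vary as a unit. Over the 23 arrays Pearson's r was highest for Ube2e2 with Dscam (0.88), Ube2e2 with Ppp1r14a (0.84) and Abcb1a with Dscam (0.81), which all share a high level in WT cDC2. It was −0.25 for Dnase1l3 with Ppargc1a, which have opposite orders in WT cDC1 and WT pDC. These values share the cell type and genotype of the arrays. After group means were taken off, the highest r was 0.73 for Ppargc1a with Ppp1r14a, 0.54 with the processing sets also taken off, while Ube2e2 with Dscam had 0.07. The SD within groups was 0.66 for Ppp1r14a, 0.54 for Ppargc1a, 0.52 for Dnase1l3, 0.41 for Ube2e2, 0.34 for Abcb1a and 0.31 for Dscam, against a median of 0.39 over all genes.

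The genes with the most alike patterns over the 23 arrays also divided by gene. For each of the 6 the 3 other genes with the highest Pearson's r were taken, a description that rests on the same cell types and arrays. Dnase1l3 was followed by Bcl9 (0.91), Gpr4 (0.91) and Mtpn (0.88). Abcb1a was followed by Dtx1 (0.91), a Notch pathway gene, Csf3r (0.90), a granulocyte growth factor receptor, and Clec4a4 (0.89), the lectin at rank 1 of the cDC2 falls. In these 3 genes too the WT cDC2 mean was the highest of the WT groups, at 8.09 for Dtx1, 7.38 for Csf3r and 7.55 for Clec4a4.

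Ube2e2 was followed by Rin2 (0.96), Tgm2 (0.95), which encodes tissue transglutaminase, and Mreg (0.94). Dscam was followed by St8sia6, Cyp4f16 and Clec4a1 (0.96 each). In cDC2 the mean of St8sia6 was 9.46 in WT and 8.74 in cKO, that of Cyp4f16 9.22 and 8.30, and that of Clec4a1 7.24 and 6.47. Ppp1r14a was followed by Gadd45g (0.92), Plagl1 (0.92) and Ifitm2 (0.91), an interferon-induced membrane protein whose cDC2 means were 10.69 in WT and 10.62 in cKO. Ppargc1a had the weakest matches, Cd72 (0.78), Plxna2 (0.78) and Spns3 (0.77). A high r over these arrays therefore came with cDC2 genotype differences from −2.72 for Clec4a4 to −0.07 for Ifitm2.

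**Figure D4:**
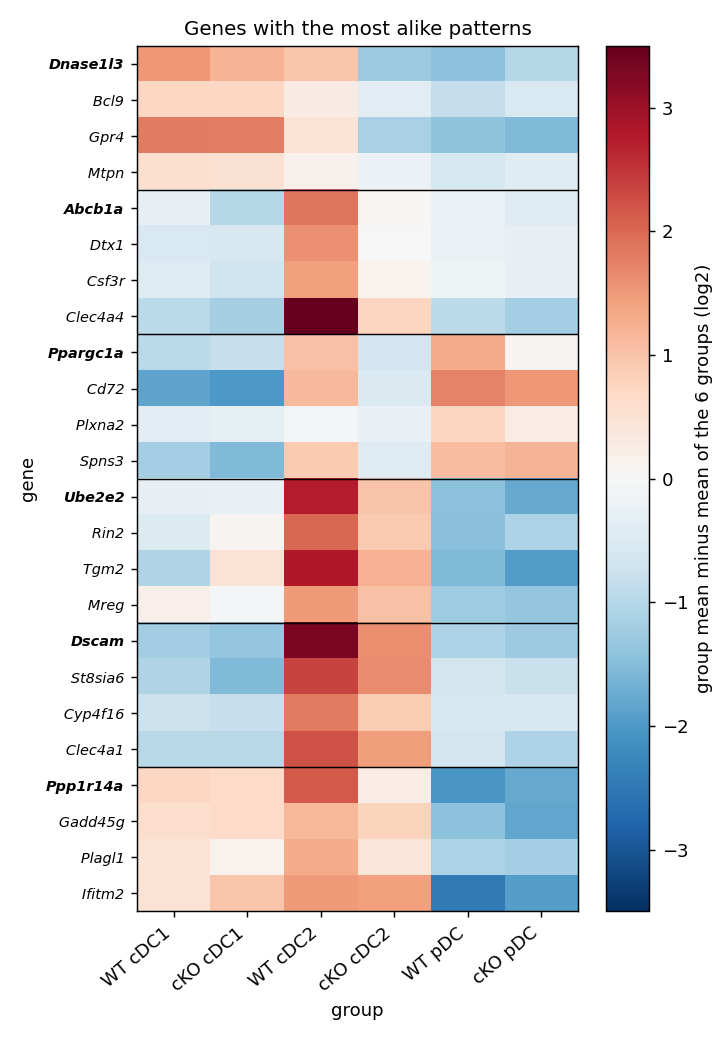
Group mean minus the mean of the 6 groups (log2, colour) for each of the 6 genes, in bold, and the 3 genes with the highest Pearson's r over 23 arrays under each. WT cDC2 has the highest mean for Abcb1a, Ube2e2, Dscam, Ppp1r14a and the genes under each of them. Dnase1l3, Gpr4 and Ppp1r14a are among those that are red in both cDC1 columns too.

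Relatives of each gene in family or pathway were examined next, 149 genes in 6 lists, of which 113 were kept. In cKO cDC2 1 of the 113 rose and 1 fell in limma's test, where 1.56% of all genes passed in either direction. List medians in cDC2 were 0.18 for 11 nucleases, 0.20 for 14 ABC transporters, 0.17 for 27 partners and targets of the coactivator, 0.07 for 29 ubiquitin-activating and conjugating enzymes, 0.20 for 12 adhesion and guidance genes and 0.10 for 20 myosin phosphatase genes, beside 0.07 over all genes. At an unadjusted p under 0.05 limma marked 10 of the 113, where it marked 6.50% of all genes. The last list held 3 of these 10, both calls among them.

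Both calls were protein kinase C genes of the myosin phosphatase list, kinases that phosphorylate and activate the Ppp1r14a product. Prkca read 4.72, 4.40 and 5.61 on WT cDC2 arrays and 6.55, 7.08, 5.78, 6.72 and 6.59 on cKO arrays, and rose by 1.64 ± 0.37 (limma adjusted p = 0.0213). Prkcb read 9.07, 8.91 and 8.75 on WT and 7.45, 8.06, 7.66, 7.46 and 7.73 on cKO arrays, a fall with a difference of −1.24 ± 0.26 (limma adjusted p = 0.0118). The isoforms thus moved in opposite directions, without overlap between the groups, and Prkca was below the array median on 2 of 3 WT arrays. In pDC Prkca was much brighter, at 9.87 ± 0.20 (SD, n = 3) in WT and 10.21 ± 0.59 (n = 5) in cKO. Prkcb read 8.28 ± 0.40 and 8.10 ± 0.52 there. The part of pDC RNA in the cDC2 values of both kinases was not tested. Neither call held without the high-Xist arrays (adjusted p of 0.156 for Prkca and 0.0886 for Prkcb), without WT cDC2 replicate 1 (0.134 and 0.096) or without WT cDC2 replicate 2 (0.196 and 0.0578), and Prkca did not pass without cKO cDC2 replicate 2 either (0.0643).

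The closest paralogs of the 6 genes did not pass in cDC2. Abcb1b, the other mouse gene for P-glycoprotein and the neighbour of Abcb1a, read 7.74 ± 0.75 (SD, n = 3) in WT cDC2 and 7.22 ± 0.52 (n = 5) in cKO, a difference of −0.51 (95% interval −1.39 to 0.36; limma adjusted p = 1), and Abcb4, next to it, differed by 0.41 (interval −0.41 to 1.23). Probe sets of such close paralogs may share signal, which was not tested. Ube2e1 differed by 0.18 (−0.27 to 0.63) and Ube2e3 by −0.36 (−1.02 to 0.30). Ppargc1b differed by 0.30, Dscaml1 by 0.41, Ppp1r14b by 0.19 and Dnase1l1 by 0.71 ± 0.24 (limma adjusted p = 0.273). Dnase1, Ppp1r14c and Ppp1r14d were too dim to be kept.

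**Figure D5:**
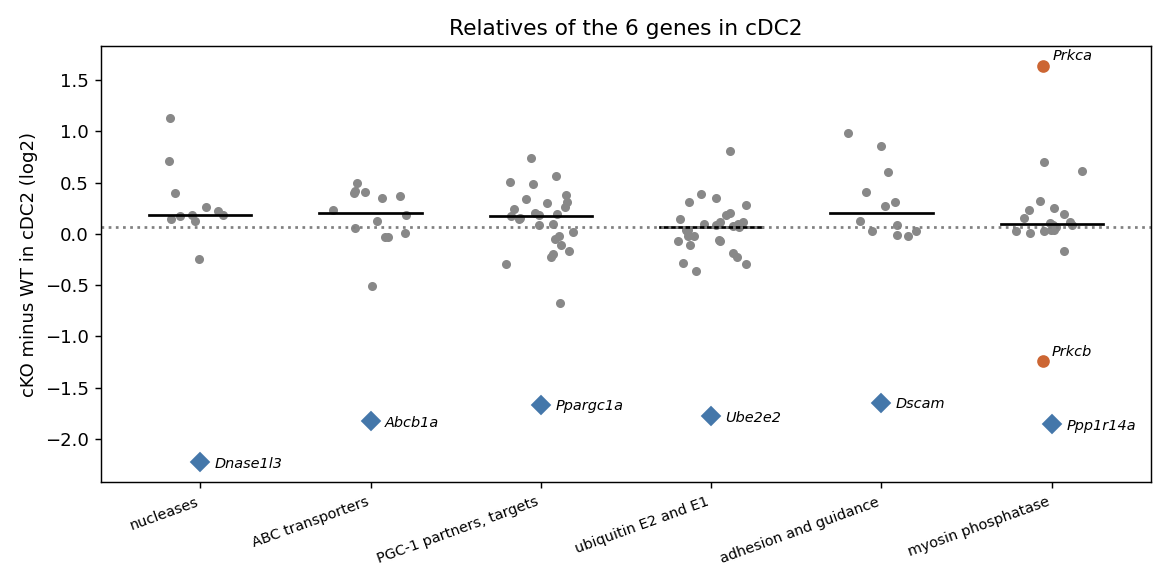
Difference between cKO and WT cDC2 arrays (log2) for the 113 kept relatives in 6 lists (grey points, black bars for list medians, dotted line for the median of all genes) and for the 6 genes (blue diamonds). The diamonds, from −2.23 to −1.65, show the values that picked the genes, and the relatives that passed limma's test, Prkca (1.64) and Prkcb (−1.24), are in orange.

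In cDC1 limma called 1 of the 113 relatives, against 0.831% of all genes, and 7 had an unadjusted p under 0.05, against 3.28% of all genes. It was Pparg, a lipid-sensing nuclear receptor that the Ppargc1a product coactivates. Pparg read 5.03, 4.85 and 5.14 in WT cDC1 and 6.33, 6.01, 6.66 and 5.88 in cKO cDC1, a rise of 1.21 ± 0.23 (limma adjusted p = 0.00399), while Ppargc1a itself was below the array median there. Pparg was above the array median on only 1 of 3 WT cDC1 arrays, so the size of this rise is uncertain. In cDC2 Pparg differed by 0.74 ± 0.22 (limma adjusted p = 0.113). It passed there only with the processing set as a term (adjusted p = 0.0228) or with 2 processing sets as a term (adjusted p = 0.0415). Abcb1b had a difference of −0.99 ± 0.44 in cDC1 (limma adjusted p = 1), next to the −0.70 of Abcb1a. With the processing set as a term Abcb1b passed at −1.11 (limma adjusted p = 0.00896). That was 1 of 11 alternatives, whose differences ran from −1.46 to −0.42, and it passed in no other or when single arrays were left out. In pDC none of the relatives passed limma's test, where 0.0329% of all genes did, and 3 had an unadjusted p under 0.05, against 1.99% of all genes.

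Genes that neighbour the 6 on the chromosome were examined last. Of the 36 nearest protein-coding genes in the RefSeq order of GRCm38.p6, 3 on each side of each gene, 19 were kept. None of the 19 passed limma's test in cDC2 and 0 had an unadjusted p under 0.05, as 6.50% of all genes did. Their differences ran from −0.64 for Abhd6, next to Dnase1l3, to 0.41 for Abcb4, near Abcb1a. Around Ppp1r14a, Spint2 differed by −0.41 and Dpf1 by −0.14, and next to Dscam, Pcp4 differed by −0.41.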

How the data were processed

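Per the submitters' processing notes, the authors made the deposited intensity values with Affymetrix Expression Console and RMA, whose versions are not given in the sources used here. They are linear (3.785 to 13980.744), so log2 was taken, with no further normalization. Probe sets brighter than the median of their array on 3 or more arrays were kept and each gene took its brightest one by mean, which left 12157 of 19938 genes. Of 28853 probe sets 21789 had 1 gene, 1621 several and 5443 none in the table used. The 23 arrays were fitted together, with a mean for each of the 6 groups, in limma 3.58.1 in R 4.3.3 (lmFit, eBayes, 17 residual degrees of freedom), two-sided, with Benjamini-Hochberg adjustment over all genes and calls at an adjusted p below 0.05. Intervals are at 95%, and precision is limited by how few arrays there are. The fit was tested on simulated data. The members, lists and motifs were chosen with earlier results of these data known. Named genes are the 6 members, called or paralogous relatives, the 3 most alike genes per member and the neighbours in rank, with targeted gene and markers as checks. The Pcp4, Spint2 and Dpf1 values and those of Xist, Dcn and Slc6a12 were named after they were seen.

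Processing sets were parted by array median, with cuts at 31.5 and 35: A (8 arrays, 29.3 to 31.0), B (6 arrays, 31.6 to 34.3) and C (9 arrays, 38.9 to 41.2). The gap between A and B is narrow, so that cut may part arrays that were processed together. WT and cKO arrays of the same replicate number deviated together from their group means in cDC1 (r of 0.44 to 0.54, each best with its own number). There a shared number also falls in 1 processing set, so pairing by number cannot be told apart from the set. The pairing comes from the data. Files were read with data.table (version 1.17.8), and figures used matplotlib 3.10.9 with numpy 2.4.6. Sequences are RefSeq's (GRCm38.p6). Alternatives covered normalization, log offset, filters, sets, array weights, samples in the fit, the replicate block and left-out arrays.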

Additional observations from a re-analysis of the deposited data

Results flagged for a closer look

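Ppp1r14a in cKO pDC read 6.90 on replicate 5, far from the next highest of the 5 arrays at 5.73, a gap of 0.80 of the group's whole range. It was the only such value among 18 groups of 4 or 5 arrays checked for the 6 genes, and chance alone marks about 1 group in 20. Without this array the pDC difference of Ppp1r14a was 0.03, against 0.28 with it, and it did not pass limma's test in either case.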

How the results depend on the processing

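The cDC2 differences of the 6 genes were negative in every alternative that gave a value, each left-out array included. With the stricter filter Ppargc1a and Dscam were not kept and gave none. When arrays are left out, the separation of the groups fixes the sign, so it is no support. Ppargc1a moved to −1.13 with log2(intensity + 16). Genes called numbered 101 for cDC1, 4 for pDC, 190 for cDC2, 40 for the difference between the cDC1 and pDC effects, 1643 for WT cDC1 against pDC and 2485 for cKO cDC1 against pDC, in the order used here. Leaving out 1 array gave 66 to 95, 1 to 7, 107 to 184, 30 to 41, 1296 to 1684 and 1993 to 2663. The extremes came without WT cDC1 replicate 2 (66), WT pDC replicate 2 (1), WT pDC replicate 3 (7) and WT cDC2 replicate 1 (107), and without WT cDC2 replicate 2 cDC2 had 123. Members called stayed at 0, 0, 0 and 3 without 1 array, but were 3 to 4 in WT cDC1 against pDC, and relatives called in cDC2 were 0 to 3. With the processing set as a term the counts were 212, 26, 559, 95, 3604 and 4656, relatives called were 3, 1 and 10 in cDC1, pDC and cDC2, and 5 members passed between cKO cDC1 and pDC. With 2 processing sets as a term, an alternative chosen after seeing the data, pDC had 9 genes, cDC2 344 with 6 relatives, the difference of effects 68, WT cDC1 against pDC 2611 and cKO cDC1 against pDC 5 members. Sets were parted on these arrays, so higher counts with them are no separate support. Array weights gave 271 genes and 4 relatives in cDC1, 1 gene in pDC, 5 relatives in cDC2 and 6303 genes for cKO cDC1 against pDC, and moved the median of all genes to 0.22 in cDC1. Quantile normalization gave 7 genes in pDC and 5 members for cKO cDC1 against pDC, whose share of higher calls went from 61.4% to 51.4%. That share went from 74.2% to 64.3% in cDC2. The stricter filter gave 0 genes in pDC and 0 relatives in cDC1, where Pparg was not kept. A fit of only the groups compared gave 0 genes in pDC and 1002 for WT cDC1 against pDC. Without the high-Xist arrays cDC2 had 106 genes and 0 relatives, the difference of effects 24 and WT cDC1 against pDC 1064. The cause of these shifts was not tested.

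With the replicate number as a block, 1 member was called in cDC1 (Abcb1a), pDC had 0 genes, cDC2 had 100 (85 shared with the 190) and 0 relatives (adjusted p of 0.174 for Prkca and 0.083 for Prkcb), and WT cDC1 against pDC had 2733. The numbers did not pair the cDC2 arrays (r of −0.08 to 0.68, 1 of 3 best with its own number) or the pDC arrays (r of −0.26 to 0.64, 1 of 3). In both cell types the pair with the highest r had both its arrays in set A. Paralog identity by protein alignment was not run. Signals below the array median limit Dscam and Ppargc1a in cDC1 and Dscam and Ube2e2 in pDC. They also limit Ppargc1a in cKO cDC2 and on part of the cKO pDC arrays. Ppp1r14a was only slightly above the median on some pDC arrays.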
